A study of Sus scrofa with 6 samples.

Results

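The genes described here encode the protein folding machinery of the endoplasmic reticulum (ER), the sensors and factors of its stress response, and the heat shock proteins of the cytosol and mitochondria. The list held 43 genes by symbol, and 38 of them matched a row among the 14262 genes of the deposited table. SDF2L1, ATF4, DDIT3, HSPA1A and HSP90AA1 matched no row and are not analysed here. The 38 comprised 15 ER chaperones and folding enzymes, 6 genes of ER-associated degradation and translocation, 5 sensors and factors of the unfolded protein response, 9 cytosolic heat shock proteins and 3 mitochondrial chaperones.

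Endometrium, the lining of the uterus, came from 6 Erhualian sows (Sus scrofa, a Chinese pig breed) on day 12 of gestation, 3 labelled high prolific and 3 labelled low prolific. Each library was taken as 1 sow, since the labels number the sows and give 1 parity per library. Sows are called high 1 to high 3 and low 1 to low 3, after the numbers in their labels. Parity, the number of litters a sow has borne, was 5, 8 and 8 in high 1 to high 3 and 7, 7 and 5 in low 1 to low 3, so across the groups only high 1 and low 3 had the same parity. How prolificacy was defined is not given in the sources used here, and the title of the series sets it beside calcium ion concentration.

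Proteins bound for secretion or for the cell surface are folded in the ER by the Hsp70-type chaperone HSPA5 with its cochaperones, by the Hsp90-type chaperone HSP90B1, by the lectin chaperones calnexin and calreticulin, and by protein disulfide isomerases. When unfolded protein accumulates, the sensors ERN1, EIF2AK3 and ATF6 raise the transcription of many of these genes and of the degradation machinery. Cytosolic heat shock proteins answer to a separate factor, HSF1. In pigs the endometrial glands secrete large amounts of protein into the uterine lumen at this stage of gestation, which places a folding load on the ER.

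Values are normalized read counts, given in the order sow 1, sow 2, sow 3 within each group. They are not divided by gene length, so levels are compared between sows for 1 gene and not between genes. The deposited columns summed to between 22663087 and 24270245. Markers of the tissue were summed in each sow. The 7 epithelial markers found, without KRT19 and MUC1, which matched no row, summed to between 54756 (low 3) and 78701 (low 1). The 9 stromal markers summed to between 409978 (high 2) and 643792 (low 2). None of either list was at 0. Every gene of the table was at 10 or more in at least 3 sows, so this was largely fixed in advance. Fold changes are log2, high minus low prolific, on the log2(value + 1) scale, with the moderated standard error (SE) from limma, which was fitted to all genes.

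No member passed limma's test between high and low prolific sows at an adjusted p under 0.05. This was also so for all genes, of which 0% were called (smallest adjusted p = 0.493). The adjusted p of the 38 members lay between 0.619 and 0.996. At an unadjusted p under 0.05 there was 1 member, DNAJB9, against 1129 genes or 7.92% of the table. In 33 of the 38 members the estimate lay below 0, that is, lower in high prolific sows, with a median log2 fold change of -0.19. Over all genes the share below 0 was 50.4% and the median -0.0024, and among genes with a mean of at least 200 the share was 49.5%. The groups did not overlap in 2 members, DNAJB9 and SEL1L, both lower in high prolific sows, a pattern that 6.32% of all genes showed in that direction, and no member lay higher without overlap (7.18% of all genes). Since tissue was sequenced in bulk, fewer cells of a type and less RNA per cell cannot be told apart.

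**Figure D1:**
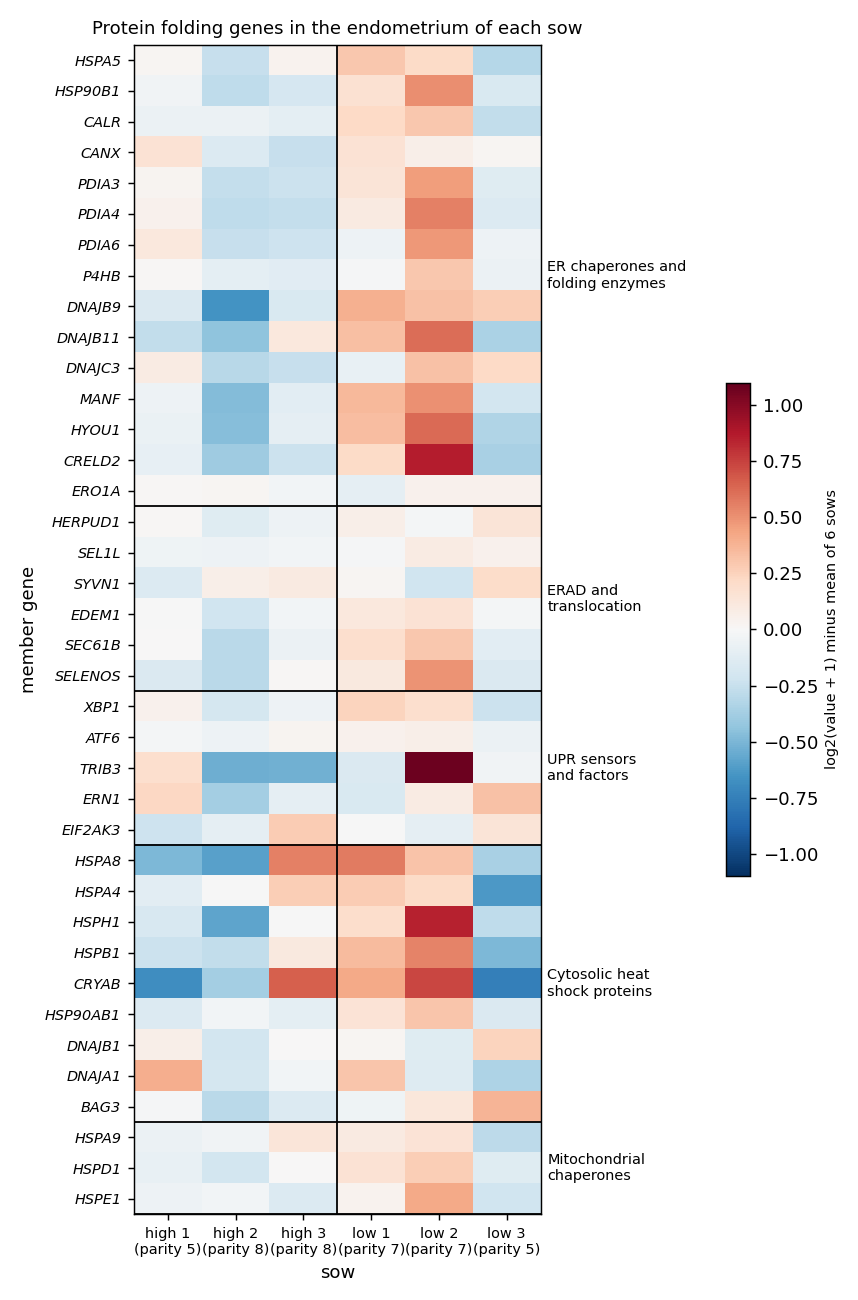
Heat map of the 38 members (rows, by class) in the 6 sows (columns, with parity), coloured by log2(value + 1) minus the mean of the gene over the 6 sows. Red cells gather in low 2, which held the highest value in 25 of the 38 genes, and blue cells in high 2, which held the lowest in 22.

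Described first are 5 members that take part in the HSPA5 chaperone cycle. HSPA5 itself (BiP, ENSSSCG00000005601), which binds unfolded chains and also holds the stress sensors inactive, was at 17638, 14593 and 17828 in high prolific and at 21283, 20114 and 13994 in low prolific sows. Low 1 and low 2 thus lay above all high prolific sows, while low 3 lay below all of them. The log2 fold change was -0.13 ± 0.19 (SE, n = 3 per group), with a 95% interval from -0.59 to 0.34.

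DNAJB9 (ERdj4, ENSSSCG00000016653), a cochaperone that brings HSPA5 to the sensor ERN1 and to misfolded proteins, was at 1624, 1149 and 1610 against 2365, 2262 and 2176. All 3 high prolific sows lay below all 3 low prolific sows. The mean was 1461 ± 271 against 2268 ± 94.5 (SD, n = 3), a 1.57-fold lower level in high prolific sows (log2 fold change -0.65 ± 0.16, limma unadjusted p = 0.0049, adjusted p = 0.619). By unadjusted p it ranked 102 among all genes. Its estimate stayed between -0.75 and -0.49 over the 18 alternative analyses.

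The other cochaperones did not separate the groups. DNAJB11 (ERdj3), which delivers substrates to HSPA5, was at 1095, 973 and 1429 against 1660, 2021 and 1037. DNAJC3 (p58IPK), a cochaperone known to restrain the kinase EIF2AK3, was at 1895, 1439 and 1495 against 1682, 2227 and 2066. HYOU1 (Grp170), a nucleotide exchange factor of HSPA5, was at 5892, 4470 and 5795 against 7823, 9535 and 4933. In DNAJB11 and HYOU1 low 3 fell among the high prolific sows, and in DNAJC3 low 1 did. Their log2 fold changes were -0.40 ± 0.27, -0.31 ± 0.16 and -0.42 ± 0.26, and their limma adjusted p lay at 0.709, 0.656 and 0.689.

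HSP90B1 (Grp94, ENSSSCG00000000849), the Hsp90 of the ER, was at 14206, 12013 and 12873 in high and at 16364, 20786 and 13016 in low prolific sows. Only low 3 overlapped the high prolific range (log2 fold change -0.34 ± 0.19). The lectin chaperones, which hold sugar-bearing proteins until they are folded, had smaller differences. CALR (calreticulin) was at 18784, 18714 and 18158 against 22770, 23997 and 16202, with high prolific sows close together and low prolific sows on both sides of them. CANX (calnexin), its membrane-bound relative, was at 22228, 17943 and 16659 against 22238, 20751 and 20137. Their log2 fold changes were both -0.16, with SE of 0.17 and 0.14.

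Of the disulfide isomerases, which form and rearrange disulfide bonds, PDIA3 (ERp57, the partner of both lectins) was at 20748, 16956 and 17199 against 22422, 27911 and 18489. PDIA4 (ERp72) was at 9141, 7321 and 7384 against 9467, 12996 and 7985, and PDIA6 at 8419, 6510 and 6608 against 7477, 10791 and 7447. P4HB, an isomerase that is also a subunit of collagen prolyl 4-hydroxylase, was at 12244, 11256 and 11118 against 12049, 14892 and 11579. In all 4 genes low 2 was highest and high 1 was the highest of the high prolific sows, above low 3. The log2 fold changes were -0.31 ± 0.18, -0.33 ± 0.20, -0.24 ± 0.19 and -0.15 ± 0.13. ERO1A, the oxidase that recharges these isomerases, was nearly level, with values from 1933 (low 1) to 2142 (low 2) and a log2 fold change of 0.005 ± 0.091, whose 95% interval ran from -0.21 to 0.22.

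A pair of small luminal proteins that cells also secrete under ER stress had 2 of the larger differences of this class. MANF, a neurotrophic factor that binds HSPA5, was at 2009, 1497 and 1929 against 2681, 2953 and 1814 (log2 fold change -0.44 ± 0.22, limma adjusted p = 0.654). CRELD2 was at 664, 539 and 603 against 818, 1292 and 554 (-0.48 ± 0.30, adjusted p = 0.692). In both, low 3 overlapped the high prolific values.

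**Figure D2:**
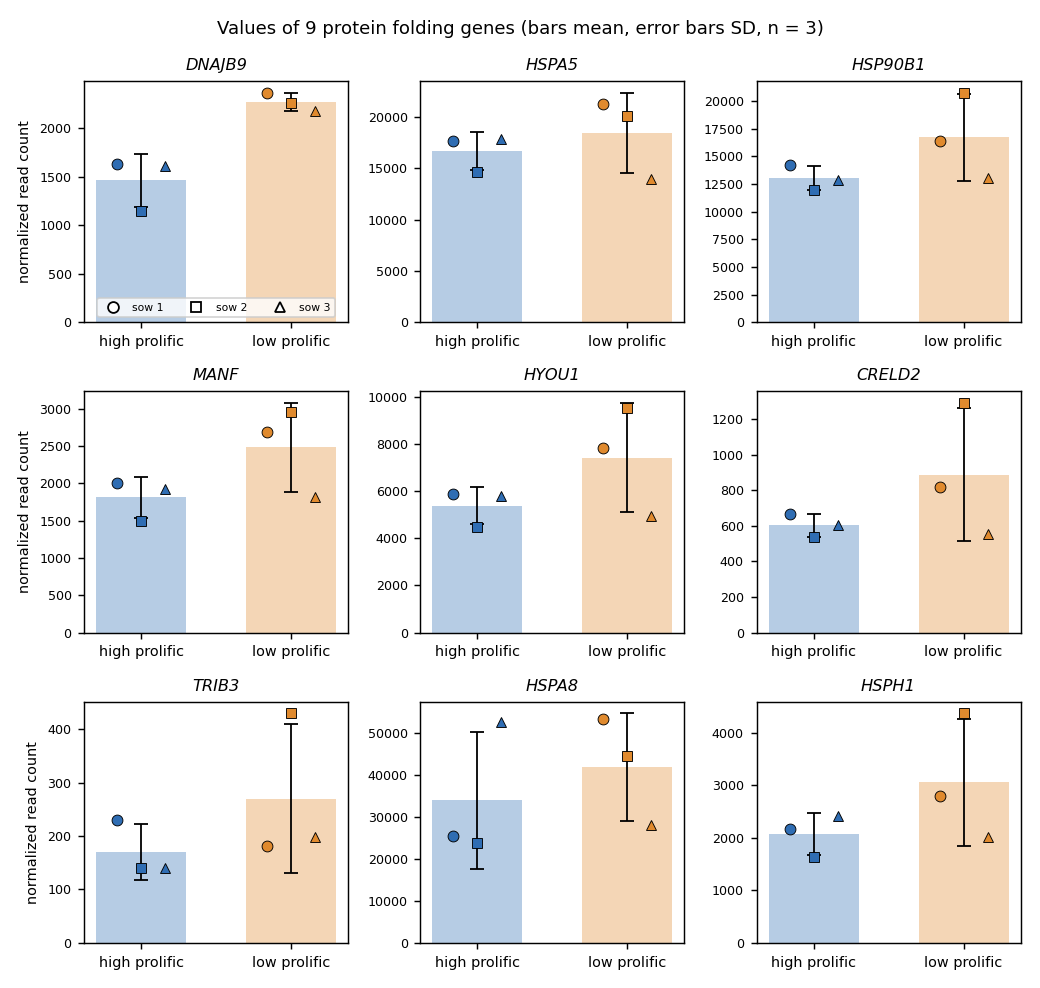
Normalized read counts (linear axes from 0) of 9 members by group (high prolific blue, low prolific orange), with bars for the mean, error bars for the SD over 3 sows and a symbol for each sow. The groups are apart only in DNAJB9 (1461 against 2268 on average), while in MANF, HYOU1, CRELD2 and HSPH1 low 3 (triangle) sits among the high prolific sows and in HSPA5 below them.

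Across the 15 ER chaperones and folding enzymes, 14 estimates lay below 0, from -0.65 (DNAJB9) to -0.13 (HSPA5), with a median of -0.31 for the class. A log2 fold change of -0.3 or lower was found in 17.0% of all genes. Low 2 held the highest value in 12 of the 15 and low 1 in the other 3, while low 2 was highest in 21.0% of all genes. High 2 held the lowest value in 10 of the 15, against 16.2% of all genes. The class score, the mean over its members of log2(value + 1) minus each gene's mean over the 6 sows, was -0.017, -0.29 and -0.14 in high prolific and 0.16, 0.41 and -0.12 in low prolific sows. The score spanned 0.70 from high 2 to low 2. The group means differed by -0.30, with a pooled SD of 0.21 within groups. High 1 lay above low 3.

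Genes of ER-associated degradation, which returns misfolded proteins to the cytosol for destruction, varied less between sows. SEL1L (ENSSSCG00000002414), the adaptor of the main ubiquitin ligase, was at 5298, 5289 and 5382 against 5436, 5850 and 5674. The groups did not overlap, but the gap between high 3 and low 1 was narrow and the log2 fold change only -0.086 ± 0.092. SYVN1 (HRD1), the ligase itself, was at 179, 208 and 213 against 202, 171 and 229 (0.005 ± 0.18). HERPUD1, which assembles that complex, was at 2036, 1841 and 1952 against 2109, 1994 and 2225. EDEM1, a mannosidase-like protein that marks glycoproteins for disposal, was at 5454, 4720 and 5369 against 5957, 6109 and 5393. Their log2 fold changes were -0.12 ± 0.095 and -0.17 ± 0.11.

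SELENOS, a membrane selenoprotein of the degradation complex, had the largest difference of these 6, at 1995, 1808 and 2250 against 2394, 3138 and 1994 (-0.29 ± 0.19, limma adjusted p = 0.692). SEC61B, a subunit of the channel through which new chains enter the ER, was at 2381, 1938 and 2270 against 2697, 2917 and 2198 (-0.24 ± 0.14). In both genes low 1 and low 2 lay above all high prolific sows and low 3 did not. The class median was -0.14, with 5 of 6 estimates below 0.

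Transcripts of the stress sensors did not separate the groups, and each estimate was smaller than its SE. ATF6, which is cut free from the membrane to act as a transcription factor, ranged only from 4526 (low 3) to 4973 (low 2), the narrowest range of all members as a ratio. EIF2AK3 (PERK), the kinase that slows translation, was at 1415, 1548 and 2014 against 1652, 1550 and 1828. ERN1 (IRE1), the sensor that splices XBP1 mRNA, was at 662, 436 and 528 against 505, 605 and 710. The log2 fold changes were -0.031 ± 0.095, -0.029 ± 0.16 and -0.17 ± 0.20, and the first turned to 0.0021 under quantile normalization.

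XBP1 (ENSSSCG00000030996), the factor that ERN1 activates, was at 9065, 7665 and 8419 in high and at 10344, 9973 and 7432 in low prolific sows. As in HSPA5, low 1 was highest and low 3 lowest (log2 fold change -0.13 ± 0.16). These are gene totals and do not separate spliced from unspliced XBP1. TRIB3, a pseudokinase induced late in the response, had the widest ratio of highest to lowest value of all 38 members, at 231, 140 and 141 against 182, 431 and 198. Low 2 alone stood above the other 5 sows, and the log2 fold change of -0.59 ± 0.39 was -0.19 without low 2.

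**Figure D3:**
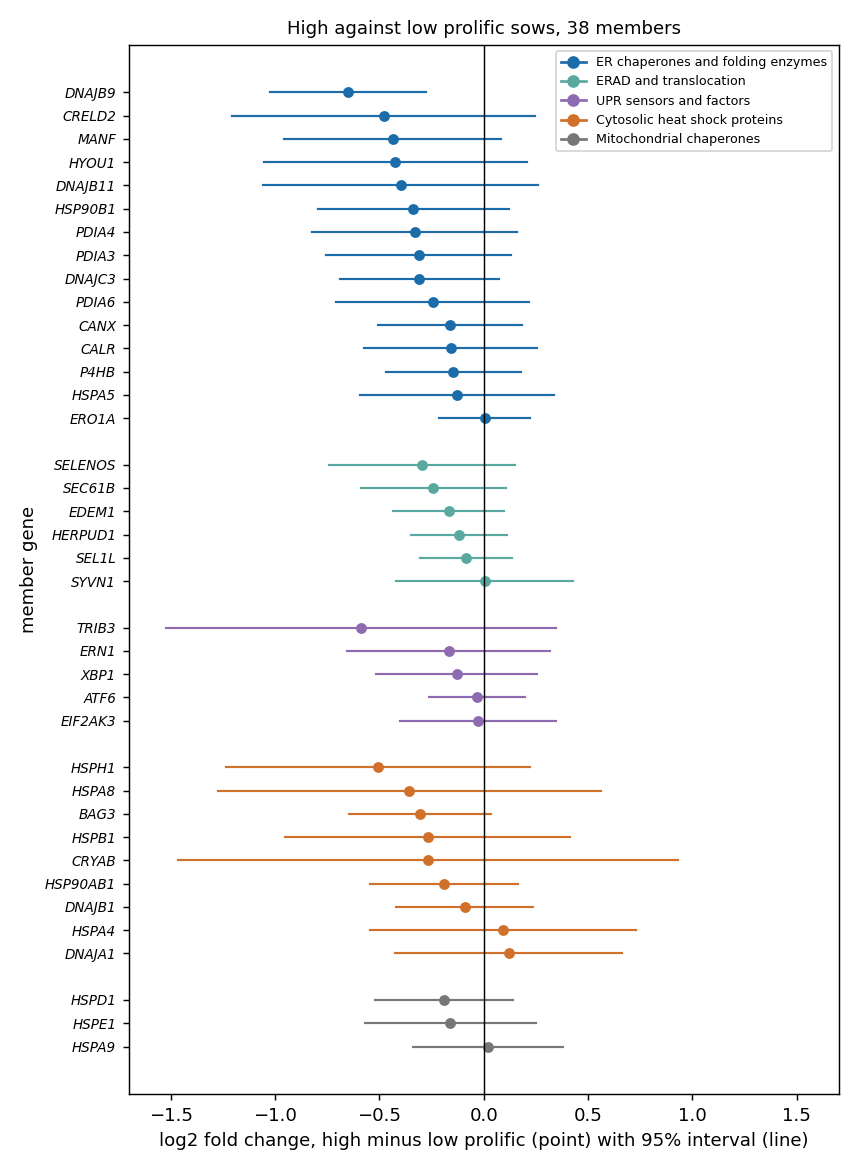
Log2 fold change of each member, high minus low prolific (point), with its 95% interval (line), coloured by class. The interval of DNAJB9 (-1.02 to -0.28) lies below 0 and those of the other 37 members include 0.

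The class score of the cytosolic heat shock proteins varied within groups (pooled SD 0.27) more than it differed between them (-0.20). HSPA8 (Hsc70, ENSSSCG00000015140), the constitutive Hsp70, was at 25426, 23698 and 52757 in high and at 53260, 44629 and 28040 in low prolific sows. High 3, low 1 and low 2 thus stood well above the other 3 sows, across the groups (log2 fold change -0.36 ± 0.38). CRYAB, a small heat shock protein, was at 133, 165 and 337 against 286, 356 and 127, with the same 3 sows on top (-0.27 ± 0.50). HSPA4, an exchange factor for Hsp70, was at 7239, 7815 and 9453 against 9548, 9073 and 5081 (0.094 ± 0.26). HSPB1 (Hsp27) was at 2094, 2047 and 2669 against 3149, 3620 and 1757 (-0.27 ± 0.28). In HSPA4, HSPB1 and HSPH1 these 3 sows also held the 3 highest values, so that 5 of the 9 cytosolic members had this order, found in 10.5% of all genes. It was not particular to this class. The same order was found in 8 of the 11 cytosolic chaperonin and prefoldin genes described below and in 2 of the 3 mitochondrial chaperones. It was also found in 10 of 34 further cytosolic heat shock proteins and cochaperones and in 4 of the 26 ER and unfolded protein response members. The order was noticed in these values and was not tested.

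HSPH1 (Hsp110) had the largest difference of the cytosolic class, at 2162, 1630 and 2424 against 2789, 4377 and 2007 (-0.51 ± 0.30, limma adjusted p = 0.686). HSP90AB1, the constitutive Hsp90, was at 12439, 13563 and 12866 against 15309, 17049 and 12370 (-0.19 ± 0.15), with low 3 again below low 1 and low 2. Others ran differently. BAG3, a cochaperone that links Hsp70 to autophagy, was at 1571, 1286 and 1428 against 1536, 1729 and 2050, and was highest in low 3 (-0.31 ± 0.14, limma adjusted p = 0.646). DNAJB1 (Hsp40), a stress-induced partner of Hsp70, was at 3624, 3009 and 3482 against 3527, 3160 and 4104 and was likewise highest in low 3 (-0.090 ± 0.14). DNAJA1, another Hsp40, was at 10712, 7098 and 7938 against 10019, 7329 and 6412 and was highest in high 1 and lowest in low 3 (0.12 ± 0.23). Reads of HSPA8, HSP90AB1, HSPD1 and HSPE1 can be shared with processed pseudogenes, so their values are uncertain to that extent.

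The mitochondrial chaperones did not separate the groups. HSPD1 (Hsp60) was at 4952, 4554 and 5261 against 5850, 6321 and 4776, and HSPE1 (Hsp10), its partner in the folding chamber, at 2486, 2523 and 2318 against 2642, 3454 and 2221. HSPA9 (mortalin), the Hsp70 that pulls proteins into the organelle, was at 6169, 6256 and 7072 against 6910, 7157 and 5289. Low 2 was highest in all 3, and the log2 fold changes were -0.19 ± 0.14, -0.16 ± 0.17 and 0.020 ± 0.15.

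The ER and unfolded protein response members and the cytosolic heat shock proteins did not stand apart in their difference between high and low prolific sows. The first, 26 genes, had 24 estimates below 0 and a median log2 fold change of -0.20, and the second, 9 genes, had 7 below 0 and a median of -0.27. The cytosolic median was -0.088 without low 2, -0.15 without high 2 and -0.16 without high 1 or without low 1. It was -0.31 without high 3 and -0.32 without low 3. The median of the 26 genes ran from -0.32 to -0.15 with 1 sow left out. The difference of the medians, 0.062, changed sign without high 1 (-0.13), high 2 (-0.012), low 1 (-0.093), low 2 (-0.058) or low 3 (-0.0055). Relative to each gene's mean over the 6 sows, the class scores parted in some sows but lay close together in high 2 and low 2. The score of the 26 genes minus that of the 9 was 0.14, 0.032 and -0.24 in high prolific and -0.14, 0.0076 and 0.20 in low prolific sows, so the groups overlapped. In high 3 and low 1 the cytosolic score was the higher, and in high 1 and low 3 the ER score was. Variation over the 6 sows was wider for the cytosolic class, with a median SD of 0.35 log2 units per gene against 0.25 for the 26 genes and 0.25 for all genes.

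**Figure D4:**
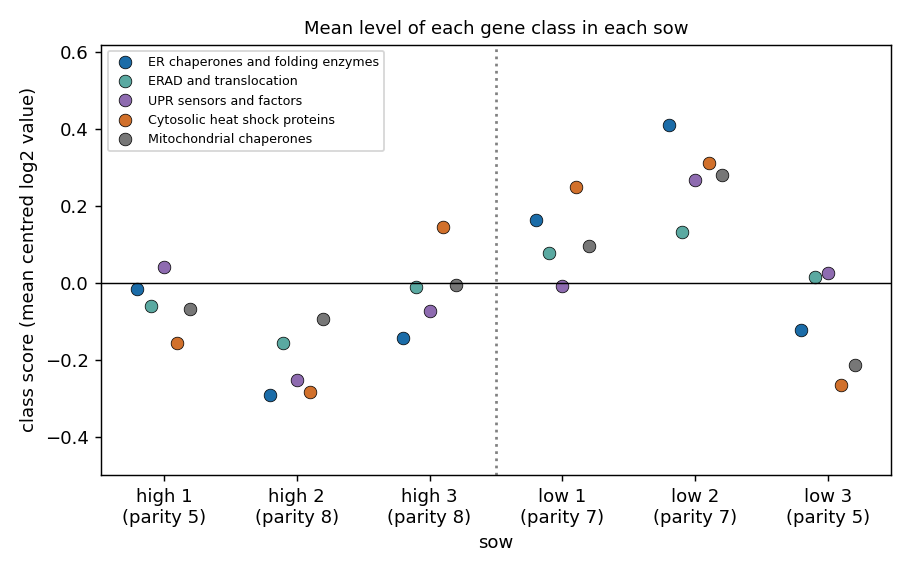
Class score (mean over members of log2(value + 1) minus the gene mean) of the 5 classes in each sow, with parity under each name. ER chaperones (blue) run from -0.29 in high 2 to 0.41 in low 2 and are lower in low 3 (-0.12) than in high 1 (-0.017), while the cytosolic score (orange) is 0.14 in high 3 and -0.27 in low 3.

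Parity differed between the sows. Of those at parity 7 or 8, high 2 and high 3 were at 8 and low 1 and low 2 at 7. Group and parity thus cannot be told apart among these 4 sows. Among the 4 sows of parity 7 or 8, both high prolific sows (high 2 and high 3) lay below both low prolific sows (low 1 and low 2) in 14 of the 15 ER chaperones and folding enzymes, a pattern of 23.2% of all genes. At parity 5, with 1 sow in each group, high 1 lay above low 3 in 12 of the 15, against 50.5% of all genes. The median log2 fold change of the class was -0.55 at parity 7 or 8 and 0.15 at parity 5. HYOU1 gave -0.76 and 0.26, CRELD2 -0.85 and 0.26, and HSPA5 -0.36 and 0.33. DNAJB9 was lower in high prolific sows at both, with -0.77 and -0.42. The split was not particular to this class. In the 9 cytosolic heat shock proteins, high 2 and high 3 lay below low 1 and low 2 in 4, and high 1 lay above low 3 in 6. For the 3 mitochondrial chaperones these counts were 2 and 3, and for all 38 members 28 and 27. This split was chosen after the values were seen, and parity 5 is 1 sow in each group, so parity and these individual sows cannot be told apart. An interaction term in limma called 0 of all genes, but its spread comes from the 4 sows of parity 7 or 8 alone, and it bears neither way on a difference between the parities. With parity as a covariate the median of the ER chaperones and folding enzymes was -0.31, as without it.

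With any 1 sow left out, 14 or 15 of the 15 ER chaperone estimates stayed below 0, but their size moved. Without low 3, 15 members reached an unadjusted p under 0.05, all lower in high prolific sows, where 724 genes or 5.08% of the table did so in that direction. Besides DNAJB9 these were HSP90B1, CALR, PDIA3, PDIA4, DNAJB11, MANF, HYOU1, CRELD2, SEC61B, SELENOS, HSPH1, HSPB1, HSP90AB1 and HSPD1. None passed adjustment (smallest adjusted p = 0.505 with limma), and the median of the ER chaperones was then -0.46. Without low 2 that median was -0.17, and DNAJB9 alone of the 38 members reached an unadjusted p under 0.05, against 4.43% of all genes. With both low 2 and low 3 left out, 14 of the 15 estimates still lay below 0, with a median of -0.30, against the single remaining low prolific sow.

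Other genes of the same pathways, 175 measured of 203 listed, gave no call either. Estimates lay below 0 in 124 of them (median log2 fold change -0.11), and 4 higher and 8 lower reached an unadjusted p under 0.05, against 3.83% and 4.09% of all genes. The groups did not overlap in 10 lower and 8 higher of the 175, against 6.32% and 7.18% of all genes. The genes named below have the smallest p of their list, a choice that favours groups without overlap. Among 27 translocon and glycosylation genes, 22 lay lower in high prolific sows. SSR3, a subunit of the translocon-associated complex, was at 2375, 2148 and 2488 against 2991, 3690 and 2742, with no overlap (-0.42 ± 0.14, limma adjusted p = 0.619). OSTC, of the oligosaccharyltransferase, was at 1590, 1352 and 1632 against 2225, 2570 and 1536, and SEC11C, of the signal peptidase, ran the other way at 3797, 3164 and 2625 against 2964, 1929 and 1924.

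Of 28 further ER folding factors, 20 lay lower in high prolific sows. UGGT2, a relative of the glucosyltransferase that senses folding, was at 216, 169 and 150 against 229, 391 and 299. FKBP7, an ER prolyl isomerase, was at 197, 167 and 187 against 285, 353 and 207. The groups did not overlap in either gene. PRDX4, an ER peroxiredoxin, was at 1125, 1136 and 934 against 1269, 1567 and 1076.

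Collagen folding and hydroxylation genes lay lower in high prolific sows in 12 of 13, with the most negative median of these lists, -0.34. That median was 0.071 without both low 2 and low 3. FKBP10 was at 1957, 1574 and 1466 against 1911, 2540 and 2229, SERPINH1 (Hsp47), the collagen chaperone, at 7182, 5783 and 5961 against 8224, 12349 and 7181, and P4HA2, a collagen prolyl hydroxylase subunit, at 2041, 1549 and 1452 against 2050, 2753 and 2002. None of the 13 passed.

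Of 30 other genes of the unfolded protein and integrated stress responses, among them kinases, processing enzymes and target genes, 22 lay lower and 8 higher in high prolific sows. The 3 with the smallest p ran in both directions. SESN2 (sestrin 2), a nutrient sensor, was at 1116, 1387 and 1230 against 964, 831 and 708, and PHGDH, which opens serine synthesis, at 9663, 10689 and 10978 against 5151, 8423 and 7696. In both, all high prolific sows lay above all low prolific sows (0.58 ± 0.15 and 0.59 ± 0.20, limma adjusted p = 0.619 for both). ASNS (asparagine synthetase) ran the other way, at 286, 201 and 241 against 283, 525 and 466 (-0.77 ± 0.27, adjusted p = 0.619).

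Other ER-associated degradation genes were near level, with a median of -0.026 over 22. HERPUD2 was lower in all high prolific sows (1117, 1053 and 1188 against 1233, 1244 and 1367) and RNF5, a ubiquitin ligase, higher (897, 866 and 845 against 800, 803 and 668). UBE2J1, a ubiquitin-conjugating enzyme, was at 1611, 1422 and 1567 against 1556, 2088 and 1722.

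Among 34 further cytosolic heat shock proteins and cochaperones, 22 lay lower in high prolific sows. BAG2, a cochaperone of Hsp70, was at 145, 36.7 and 98.7 against 160, 691 and 496 (-2.22 ± 0.70, limma adjusted p = 0.619), with low 2 and low 3 far above the rest. HSPB8, the partner of BAG3, was at 640, 620 and 822 against 1043, 2442 and 705. UNC45A, a myosin chaperone, was at 1805, 1852 and 1729 against 1553, 1594 and 1669.

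The cytosolic chaperonin and prefoldin list lay lower in 10 of 11. CCT3, a chaperonin subunit, was at 3931, 3268 and 4272 against 4789, 8272 and 5115, with no overlap, while its partners TCP1 (1238, 1224 and 1459 against 1598, 1670 and 1234) and CCT2 (3692, 3814 and 4212 against 4732, 4413 and 3829) overlapped. Other mitochondrial chaperones and proteases were the only one of the 8 lists with a median above 0 (0.046), with 7 of 10 higher. In that list the protease HTRA2 was lower in all high prolific sows, at 437, 471 and 409 against 483, 542 and 510, while CLPX was at 2510, 2829 and 2993 against 2503, 2328 and 2527 and SPG7 at 1443, 1530 and 1631 against 1498, 1342 and 1356.

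Marker sums of several cell types also differed between sows. Plasma cells, which are rich in ER, had 8 of 9 markers found, summing to between 11948 and 17257 in high and between 12155 and 16534 in low prolific sows. XBP1, itself described above, is 1 of these 8 and made up 51.5% to 71.9% of the sum. The other 7 summed to 8192, 4283 and 7938 in high and to 6190, 3905 and 4724 in low prolific sows. The 6 neutrophil markers found of 7 summed to between 627 and 9450 in high and between 11912 and 27521 in low prolific sows, with no overlap. Of these 6 markers, 4 lay lower in high prolific sows. S100A8, picked after its values were seen, was at 5414 and 10857 in low 2 and low 3 and at no more than 713 in the other sows. It thus made up little of the sum of 11912 in low 1. Epithelial markers summed to between 66736 and 70050 in high and between 54756 and 78701 in low prolific sows, highest in low 1 and lowest in low 3. The 3 gland markers found of 7 summed to between 7527 and 21644 and between 9520 and 37637, and the stromal markers to between 409978 and 570225 and between 481326 and 643792. The 5 endothelial markers found of 7 all lay lower in high prolific sows (median log2 fold change -0.45), with sums between 9190 and 13751 against 11578 to 20937. Of the 5 smooth muscle markers found of 6, 4 lay lower (median -0.98), with sums between 17891 and 25185 against 17489 to 27207. Macrophage markers (8 of 8 found) summed to between 6842 and 9484 against 7008 to 10371, and those of T and NK cells (7 of 8) to between 741 and 1034 against 656 to 766. Fewer estimates lay below 0 in plasma cells (3 of 8), epithelium (3 of 7) and T and NK cells (2 of 8 rows). The counts were 2 of 3 for glands, 7 of 9 for stroma and 5 of 8 for macrophages. Markers without a row are left out of these sums, and the part of the cell types in the values of the ER genes was not tested.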

How the data were processed

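Endometrial RNA of 6 sows was sequenced. The authors deposited 1 table of normalized read counts per gene, a signal that is not whole. Per the submitters' processing notes they used Subread 1.6, featureCounts and edgeR. The sources used here give no roles, settings, genome build, annotation or strand setting, and coordinates are left out. With a tolerance of 0.1 of a step, 40.6% to 100% of the low values (under 20) of a column were multiples of its best step, so whole reads were not recovered, depth is unknown and no count model was run. Symbols matched 11977 of the 14262 Ensembl identifiers. Every gene was at 10 or more in at least 3 sows.

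Groups were compared with limma 3.58.1 (R 4.3.3) on log2(value + 1), with variance trend and robust moderation. The test was two-sided, with Benjamini-Hochberg adjustment over all 14262 genes and a threshold of 0.05. The fit was also run on simulated data with independent noise, where planted changes were larger than any member's estimate. That run does not show whether changes of the size seen here would be found. P-values weigh the group difference against the spread between these sows within groups, moderated with that of all genes. The rule for named genes took every member found and, from each pathway list, the 3 genes with the smallest unadjusted p. S100A8 and the sums of markers were described after their values were seen. The members and lists were chosen with earlier results of these data known. Classes and lists are described by counts and medians, with no test. Promoter and protein sequences were not analysed here. Same-numbered sows share no stated animal, litter or day, and their deviations from the group means correlated at -0.38, -0.16 and -0.36 across genes, so the numbers were not taken as pairs.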

Additional observations from a re-analysis of the deposited data

How the results depend on the processing

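No member was called under any of the 18 alternatives (smallest adjusted p = 0.269, DNAJB9 without low 1), nor were other pathway genes. Over all genes the number called was between 0 and 4 when 1 sow was left out, with 4 without low 1 and 1 without low 2, and 0 otherwise. Genes at an unadjusted p under 0.05 numbered 1129, between 466 (without high 2) and 1872 (without low 1) with 1 sow left out, 632 without low 2, 631 without both low 2 and low 3, and 615 with the replicate block, which changed no call. Members at an unadjusted p under 0.05 numbered between 1 and 15 with 1 sow left out (2 without high 1, 3 without low 1 and 15 without low 3, where 8.86%, 13.1% and 9.67% of all genes did), 10 with library weights (11.7% of all genes) and 2 without both low 2 and low 3 (4.42%). The difference of medians between ER and cytosolic members ran from -0.13 to 0.12 with 1 sow left out. Of 684 member estimates, 31 in 11 members changed sign, none of them called. With 1 sow left out, estimates ran from -0.044 to 0.030 for ERO1A, -0.11 to 0.10 for SYVN1, -0.18 to 0.078 for EIF2AK3, -0.20 to 0.26 for HSPA4, -0.71 to 0.032 for CRYAB, -0.18 to 0.0097 for DNAJB1, -0.052 to 0.30 for DNAJA1, -0.12 to 0.10 for HSPA9 and -0.31 to 0.011 for HSPE1. Without both low 2 and low 3 the values that changed sign were -0.015 for SYVN1, 0.082 for ERN1, -0.23 for HSPA4, -0.25 for DNAJA1 and -0.091 for HSPA9. With parity as a covariate SYVN1 was at -0.00061, HSPA4 at -0.034 and HSPA9 at -0.039, and with library weights HSPA4 was at -0.044 and HSPA9 at -0.054. Under upper quartile scaling, which moved the median of all genes to 0.030, ATF6 was at 0.0011 and EIF2AK3 at 0.0039, and under quantile normalization ATF6 was at 0.0021. The cause of these turns was not tested. With 3 sows per group and unknown depth, a p that misses the threshold does not show that levels were equal.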
